A study of Mus musculus with 71 samples.

Results

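The ribosomal protein genes of mouse brain were described here across 3 inbred strains, sleep loss and time of day. Members were all probe sets with a single platform gene symbol of the form Rps or Rpl followed by a number or by p, without the S6 kinase genes and without symbols marked as pseudogenes. This gave 104 probe sets for 49 genes, out of 45037 probe sets for 18193 named genes. Small-subunit proteins accounted for 20 genes on 51 probe sets and large-subunit proteins for 22 genes on 42 probe sets. A further 7 genes on 11 probe sets are paralogs or carry a similar name: Rpl3l, Rpl7l1, Rpl22l1, Rpl39l, Rps27l, Rps4l and Rps19bp1. Of these, Rps4l is listed by RefSeq as a transcribed pseudogene, and Rps19bp1 encodes a protein that binds S19. The platform gave 110 further probe sets several symbols that include a ribosomal protein gene, and the rule leaves those out.

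The RNA came from whole brain of male AKR/J, C57BL/6J and DBA/2J mice, unmodified inbred strains, 12 to 13 weeks old. Mice were kept awake for 6 h up to sacrifice or stayed in the home cage, and were killed at ZT0, ZT6, ZT12 or ZT18 (hours after light onset, with the dark phase beginning at ZT12). Each one-colour Affymetrix array held an RNA pool from 3 mice, and 23 of the 24 groups had 3 arrays while sleep-deprived AKR/J mice at ZT18 had 2, which makes 36 control arrays and 35 after sleep deprivation. The study asked which brain RNAs respond to loss of sleep and whether the response depends on the strain or on the hour.

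Cytosolic ribosomes consist of a small subunit, which reads the mRNA, and a large subunit, which joins amino acids, and each holds many different proteins on a scaffold of ribosomal RNA. The mRNAs of these proteins typically begin with a C followed by a run of pyrimidines, the terminal oligopyrimidine tract, through which TOR signalling and the RNA-binding protein Larp1 control how strongly they are translated. Their RNA amounts are high and are held close to one another in most cells, and several of these genes serve as reference genes in RNA assays. Phosphorylation of the S6 protein, a step that expression arrays do not measure, is widely used as a mark of active neurons.

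The first bases of genes the results turn on are shown because the oligopyrimidine tract is a known feature of this family that the array data do not use. RefSeq starts on GRCm38.p6 were found for 43 of the 49 genes, 51 starts in all. Each line gives 15 bases before and 15 from the start, 5′ to 3′ on the transcribed strand, and capitals mark a C within 5 bases of the start with at least 4 pyrimidines after it, searched on that strand only.
Rpl38, chr11:114668565-114668594, plus strand: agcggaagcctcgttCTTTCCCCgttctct
Rps18, chr17:33955651-33955680, minus strand: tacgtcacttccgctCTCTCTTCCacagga
Rps6, chr4:86857353-86857382, minus strand: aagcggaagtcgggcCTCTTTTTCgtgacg
Rps9, chr7:3704026-3704055, plus strand: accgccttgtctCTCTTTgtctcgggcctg
Rpl14, chr9:120571502-120571531, plus strand: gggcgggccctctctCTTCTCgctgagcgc
Rps2, chr17:24720048-24720077, plus strand: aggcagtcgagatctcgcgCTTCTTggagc
Rpl12, chr2:32961697-32961726, plus strand: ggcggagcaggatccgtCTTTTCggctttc
Rpl13a, chr7:45128731-45128760, minus strand: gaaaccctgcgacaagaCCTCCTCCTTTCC
Rpl22 (first of 2 starts), chr4:152324421-152324450, plus strand: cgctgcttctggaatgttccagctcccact
Rps3, chr7:99483695-99483724, minus strand: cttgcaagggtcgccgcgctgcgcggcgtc
Rpl7l1, chr17:46782642-46782671, minus strand: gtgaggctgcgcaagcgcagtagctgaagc
Rps25, chr9:44407699-44407728, plus strand: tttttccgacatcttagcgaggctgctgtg
Rps19bp1, chr15:80264292-80264321, minus strand: cagggcggaagtagctcgccgcgtgtgggc
The tract was present at 21 of the 51 starts (41.2%), in 20 of the 43 genes, against 6024 of 32841 starts in the whole table (18.3%). It was present in Rpl38, Rps18 and Rps6 and was not found in this window for Rpl22, Rps3, Rpl7l1, Rps25 or Rps19bp1. These matches describe the letters of the window and say nothing of translation.

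Each value is the log2 signal of a probe set, on which scale a step of 1 means a factor of 2, and it is relative to the other probe sets of its array, since the arrays had been normalised to one another. Signals of different probe sets are not compared with each other as amounts of RNA. A probe set was called when its limma adjusted p was under 0.05 over all 45037 probe sets. On the poly-A spike-in controls, 6 arrays stood apart from the rest: replicate 3 of the AKR/J controls at ZT0 and ZT6, of the C57BL/6J controls at ZT0 and of the sleep-deprived C57BL/6J mice at ZT0, and replicates 1 and 3 of the sleep-deprived C57BL/6J mice at ZT6. Calls that were lost without them are given as such. All 6 neuronal markers examined were measured, and their summed level lay within 14.98 to 15.18 on every control array, whereas that of pituitary hormone genes ran from 7.90 to 14.24. With sleep deprivation 3 of 5 oligodendrocyte markers were lower (median -0.07, summed levels of 14.50 to 14.83 in controls and 14.54 to 14.77 after sleep deprivation), and neurons had 1 marker of 6 higher and 1 lower, microglia 1 of 6 higher, and endothelial cells 1 higher and 2 lower of 6. No marker of astrocytes, choroid plexus, red blood cells or pituitary was called there. The part of these shifts in the members' values was not tested. In whole brain, fewer cells of a type and less RNA per cell cannot be told apart.

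After sleep deprivation most ribosomal protein probe sets were not called, and a few of lower signal rose or fell by small amounts. Averaged over the 12 differences within strain and time, 9 of the 104 probe sets were higher and 4 lower (12.5%), from 10 genes, against 17.3% of all probe sets, of which 8.31% were higher and 9% lower. The median difference was -0.0022 log2 units among members and -0.0024 among all probe sets. With the brightest probe set for each gene, 5 of 49 were called (10.2%), against 22.1% of all genes. Small-subunit probe sets were called in 5 of 51 cases (9.80%), large-subunit probe sets in 4 of 42 (9.52%), and those of the paralogs and similarly named genes in 4 of 11 (36.4%).

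**Figure D1:**
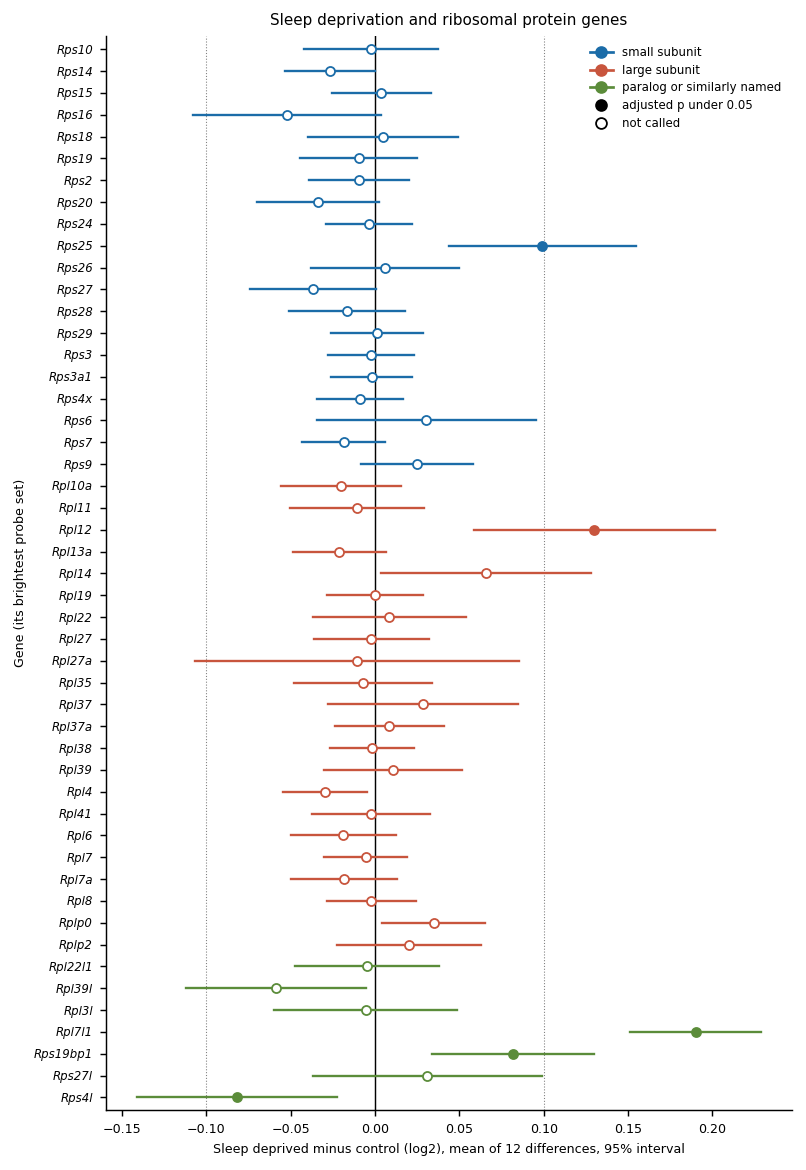
Difference between sleep-deprived and control arrays (log2, mean of 12 strain-by-time differences, horizontal axis) for the brightest probe set of each of the 49 genes (vertical axis), with 95% intervals; colours give the subunit, filled points an adjusted p under 0.05, and dotted lines mark differences of 0.1. Rpl7l1, Rpl12, Rps25 and Rps19bp1 lie to the right of 0 and Rps4l to the left, and most subunit genes lie within 0.05 of 0.

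No probe set of strong signal was called. Among the 58 members with a mean over 11, a split chosen after the values were seen, 0 were called by limma, 3 had an unadjusted p under 0.05, and the smallest adjusted p was 0.0938 (Rpl4, a large-subunit protein gene, -0.03). Of all 984 probe sets with a mean over 11, 16.1% were called. The 95% intervals of all 58 lay within 0.1 log2 units of 0, as did those of 88.9% of the 984, and 45 of the 58 (77.6%) lay within 0.05, against 40.3%. With array weights, Rplp0, whose mean is 11.07, passed the threshold (adjusted p = 0.0412), while it missed it otherwise (0.03 ± 0.02 SE, adjusted p = 0.114).

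Rps3a1, a small-subunit protein gene, shows how narrow the range was. Its control arrays ran from 12.83 through a median of 12.94 to 13.02 and its sleep-deprived arrays from 12.85 through 12.93 to 13.01, so the groups lay on top of each other (difference -0.0020, 95% interval -0.026 to 0.022). Rpl38, a large-subunit protein known for its part in translating Hox mRNAs, gave 12.95, 13.04 and 13.14 in controls and 12.96, 13.04 and 13.12 after sleep deprivation, again with full overlap. Rpl41, which encodes the shortest of these proteins, differed by -0.0023 on 1 bright probe set (adjusted p = 0.962). Rplp2, a protein of the stalk that recruits elongation factors, differed by 0.02 (adjusted p = 0.625).

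Rps6, the substrate of the S6 kinases, was not called on either of its probe sets, with differences of 0.03 (adjusted p = 0.631) and -0.02. Rps27 differed by -0.04 (adjusted p = 0.198) and Rpl39 by 0.01 (adjusted p = 0.821). Among the paralogs, Rpl22l1, Rps27l, Rpl3l and Rpl39l were not called either. Rpl3l is known from striated muscle and Rpl39l from testis, and both had low signal here, with means of 3.66 and 3.82. Their differences were -0.0056 and -0.06, the latter with an adjusted p of 0.135.

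Rpl7l1, a paralog of Rpl7 whose yeast relative works in large-subunit assembly, showed the largest rise. On 1452049_at the control arrays ran from 7.69 through a median of 7.97 to 8.18 and the sleep-deprived arrays from 7.99 through 8.15 to 8.34. The lowest sleep-deprived array was above the control median, and the groups overlapped. The rise was 0.19 ± 0.02 log2 units (SE, 71 arrays, 1.14-fold, adjusted p = 1.71e-11), with a positive difference in 12 of 12 strain-by-time pairs, from 0.03 to 0.34. A second probe set, 1426386_at, rose by 0.08 ± 0.03 (adjusted p = 0.0325, 10 of 12 pairs), and the third, 1439780_at, differed by -0.03 (adjusted p = 0.508).

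Rpl13a, a large-subunit protein that also acts in a complex that silences inflammatory mRNAs, moved on part of its probe sets. On 1433928_a_at controls ran from 9.11 through 9.37 to 9.54 and sleep-deprived arrays from 9.14 through 9.49 to 9.66. Both groups covered nearly the same range with the sleep-deprived arrays shifted upward, by 0.12 ± 0.02 (adjusted p = 4.19e-07, 11 of 12 pairs). Another, 1455001_x_at, rose by 0.05 (adjusted p = 0.0136), while the brighter 1417608_a_at and 1455485_x_at both differed by -0.02 and were not called. The 4 probe sets therefore do not give a single direction for this gene.

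The remaining rises came from single probe sets. Rpl12, which sits at the base of the stalk, went from 5.65, 6.10 and 6.38 (lowest, median and highest control array) to 5.65, 6.24 and 6.56 (0.13 ± 0.04, adjusted p = 0.00559, 9 of 12 pairs). Rps25, a small-subunit protein known for its role at viral internal ribosome entry sites, went from 7.04, 7.45 and 7.87 to 7.31, 7.47 and 7.82 (0.10 ± 0.03, adjusted p = 0.0066, 10 of 12 pairs). Rps19bp1 went from 8.02, 8.34 and 8.57 to 8.0, 8.40 and 8.59 (0.08 ± 0.02, adjusted p = 0.0101, 11 of 12 pairs). In all of these the groups overlapped over most of their range. Rpl12, Rps25 and Rps19bp1 have no second probe set among the members.

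Rps9 and Rps10, both of the small subunit, rose on 1 dim probe set each. Rps9 1426958_at rose by 0.11 ± 0.03 (adjusted p = 0.0131, 10 of 12 pairs). The bright Rps9 probe set 1433689_s_at differed by 0.03 (adjusted p = 0.369) and 1434624_x_at by 0.07 (adjusted p = 0.212), and neither was called. Rps10 1436384_at rose by 0.10 ± 0.03 (adjusted p = 0.0336, 8 of 12 pairs), whereas the other 5 probe sets of Rps10 differed by -0.0061 to 0.0054. The Rps10 call was lost without the 6 arrays apart on the poly-A controls (0.09, adjusted p = 0.099).

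Rps20, whose protein lies on the head of the small subunit, showed the largest fall, and again on dim probe sets. On 1450417_a_at controls ran from 3.49 through 3.89 to 4.19 and sleep-deprived arrays from 3.33 through 3.69 to 4.09 (-0.20 ± 0.03, adjusted p = 8.71e-07, lower in 11 of 12 pairs). On 1421935_at they ran from 4.32 through 4.67 to 4.88 and from 4.10 through 4.46 to 4.79 (-0.17 ± 0.03, adjusted p = 8.24e-05, lower in 12 of 12 pairs). Sleep-deprived arrays were lower in both, with overlap. The 2 bright probe sets of the gene differed by -0.02 and -0.03 and were not called.

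Rpl22, a large-subunit protein that also binds and regulates the mRNA of its paralog Rpl22l1, fell on 1448398_s_at, a probe set that can match several transcripts. Controls ran from 8.63 through 8.85 to 9.00 and sleep-deprived arrays from 8.68 through 8.80 to 8.94, largely overlapping (-0.07 ± 0.02, adjusted p = 0.00109, lower in 11 of 12 pairs). Its 2 other probe sets differed by 0.0065 and 0.0086 and were not called. Rps4l fell by 0.08 ± 0.03 (adjusted p = 0.0466, lower in 8 of 12 pairs), a call that was lost without the 6 arrays apart on the poly-A controls (-0.07, adjusted p = 0.0775), after centring the arrays on their medians (adjusted p = 0.0506), and in 44 of 71 refits that each left out 1 array. Of the 10 genes called, 8 have a start in the RefSeq table, and 4 of those 8 carry the oligopyrimidine tract shown for Rpl12 and Rpl13a.

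**Figure D2:**
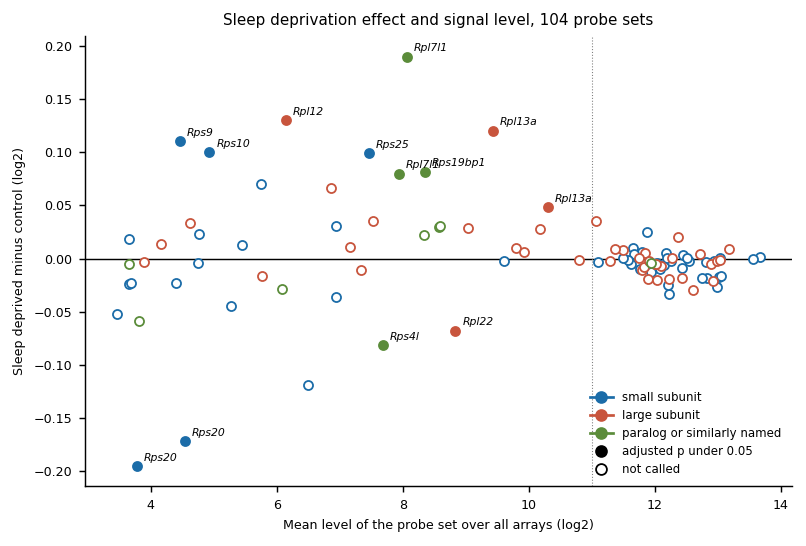
Sleep-deprived minus control difference (log2, vertical axis) against the mean level of each of the 104 probe sets over all arrays (log2, horizontal axis), with filled points for an adjusted p under 0.05 and the dotted line at a mean of 11. The line was set after the values were seen. All 13 called probe sets lie to its left, and the 58 to its right lie between -0.034 and 0.035.

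Within single strains few members passed the test. In each strain 4 of the 104 probe sets were called (3.85%), against 5.85% of all probe sets in AKR/J, 6.45% in C57BL/6J and 6.90% in DBA/2J. Rpl7l1 rose in AKR/J by 0.23 (adjusted p = 3.96e-06), in C57BL/6J by 0.16 (adjusted p = 0.000758) and in DBA/2J by 0.19 (adjusted p = 7.37e-05). Rpl13a 1433928_a_at rose by 0.14, 0.10 and 0.13 in the same order (adjusted p = 0.00323, 0.0382 and 0.00382), and its C57BL/6J call was lost without the arrays apart on the poly-A controls (adjusted p = 0.23).

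Rps25 was called in AKR/J (0.18, adjusted p = 0.0135), a call lost without those arrays (adjusted p = 0.0598), and Rpl12 in AKR/J (0.20, adjusted p = 0.0409) and DBA/2J (0.19, adjusted p = 0.0476). Rps20 1450417_a_at fell in C57BL/6J by 0.26 (adjusted p = 0.000364) and in DBA/2J by 0.17 (adjusted p = 0.0254). The AKR/J calls were 4 higher and 0 lower, and 4 higher and 1 lower after quantile normalisation. The AKR/J count fell from 4 to 2 without replicate 1 of the sleep-deprived AKR/J mice at ZT18. The DBA/2J count fell from 4 to 2 without replicate 2 of its controls at ZT12, replicate 1 of its sleep-deprived mice at ZT6 or replicate 2 of those at ZT18.

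The test of strain by sleep deprivation itself called 0 of the 104 members, against 0.0222% of all probe sets, and 2 members had an unadjusted p under 0.05. The smallest p-values belonged to Rps25 (effects of the strains spanning 0.20, adjusted p = 0.591), Rpl12 (0.20, adjusted p = 0.659) and Rpl35 1436840_x_at (0.13, adjusted p = 0.674). No member was therefore shown to respond to sleep loss differently in the 3 strains.

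By time of sacrifice, calls came mainly at ZT6 and ZT12, when the lost sleep fell in the light phase, the usual sleep time of mice. At ZT6, 4 members were higher and 3 lower (6.73%), against 10.4% of all probe sets. At ZT12, 2 were higher and 4 lower (5.77%), against 9.75%. At ZT0, 2 were higher (1.92%), against 1.71%, a count that fell to 1 when any of 26 arrays was left out singly, and at ZT18 0 were called, against 0.0777%, with 3 at an unadjusted p under 0.05 and a smallest adjusted p of 0.633.

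Rpl7l1 1452049_at differed most at ZT6, where the 9 controls ran from 7.69 through 7.83 to 7.96 and the 9 sleep-deprived arrays from 7.99 through 8.10 to 8.21, without overlap (0.29, adjusted p = 6.01e-08). At ZT12 they ran from 7.75 through 7.90 to 8.04 and from 8.01 through 8.18 to 8.34 (0.27, adjusted p = 5.51e-07), with the ranges just meeting. At ZT0 the difference was 0.11 and at ZT18 0.08 (adjusted p = 0.841 at ZT18), and controls at these times stood higher than at ZT6, at 7.93 to 8.11 at ZT0 and 8.06 to 8.18 at ZT18. Sleep-deprived arrays ran from 8.09 to 8.24 at ZT0 and from 8.12 to 8.29 at ZT18. The test of time by sleep deprivation called Rpl7l1 (effects spanning 0.21, adjusted p = 0.0273), 1 of 2 members called (1.92%), against 1.40% of all probe sets. That call was lost without replicate 2 of the sleep-deprived AKR/J mice at ZT18 (adjusted p = 0.0584), 1 of only 2 arrays of its group.

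The other was Rps4l, with effects of 0.13 at ZT0, -0.20 at ZT6, -0.25 at ZT12 and -0.01 at ZT18 (spanning 0.38, adjusted p = 0.0109). Its control means rose from ZT0 to ZT6 in every strain, from 6.87 to 7.13 in AKR/J, from 8.50 to 8.67 in C57BL/6J and from 7.32 to 7.86 in DBA/2J. After sleep deprivation the means at ZT0 and ZT6 were 7.06 and 7.07 in AKR/J, 8.52 and 8.48 in C57BL/6J, and 7.51 and 7.50 in DBA/2J, so they lay closer together. Without the arrays apart on the poly-A controls the span was 0.33 and the call was lost (adjusted p = 0.077), as was its call at ZT6 (-0.12, adjusted p = 0.32), while at ZT12 the fall was called with all arrays (adjusted p = 0.00215).

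Rps20 1450417_a_at fell at ZT12 by 0.37 (adjusted p = 4.5e-06), from 3.88, 4.10 and 4.13 in controls to 3.55, 3.69 and 3.87 after sleep deprivation, without overlap. At ZT6 it fell by 0.25 (adjusted p = 0.00185), from 3.83, 3.96 and 4.19 to 3.43, 3.74 and 4.09, with overlap. The other Rps20 probe sets were also below 0 at ZT12 but were not called. The bright 1456373_x_at and 1456436_x_at differed by -0.10 and -0.07 (adjusted p = 0.057 and 0.195), and the dim 1421935_at by -0.17 (adjusted p = 0.0926). The test of time by sleep deprivation gave Rps20 an adjusted p of 0.068, which misses the threshold.

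**Figure D3:**
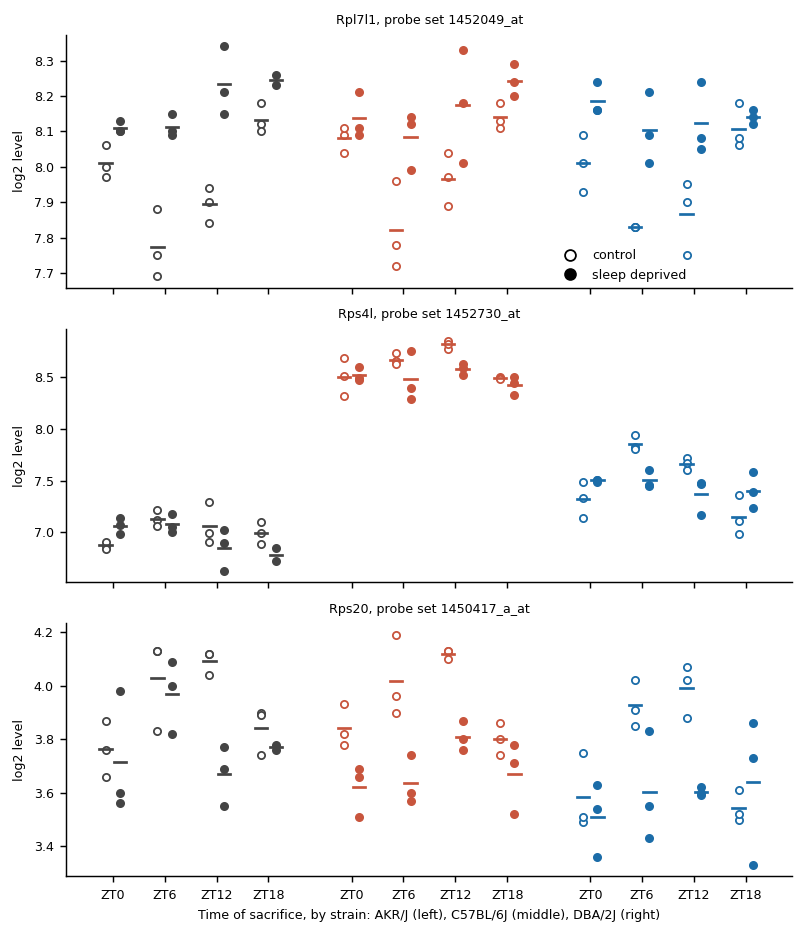
Log2 level (vertical axis) on every array for Rpl7l1, Rps4l and Rps20, by strain and time of sacrifice (horizontal axis); open points are control arrays, filled points sleep-deprived arrays, and bars group means. Rpl7l1 is lowest at ZT6 in both conditions, with means of 7.81 in controls and 8.10 after sleep deprivation and a smaller spread over the times after sleep deprivation (8.10 to 8.21, against 7.81 to 8.13), Rps20 controls are highest at ZT6 and ZT12, and C57BL/6J stands above the other strains in Rps4l.

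Rpl13a 1433928_a_at rose at ZT6 from 9.18, 9.33 and 9.44 in controls to 9.41, 9.49 and 9.58 (0.17, adjusted p = 5.74e-04) and at ZT12 by 0.13 (adjusted p = 0.0109). Rpl22 1448398_s_at fell at ZT6 from 8.85, 8.93 and 9.00 to 8.76, 8.81 and 8.91 (-0.11, adjusted p = 0.0111) and at ZT12 by 0.09 (adjusted p = 0.0465). Both pairs of groups overlapped only at their edges at ZT6. Rps25 (0.18, adjusted p = 0.0246) and Rps10 1436384_at (0.23, adjusted p = 0.0178) also rose at ZT6, and the Rps10 call was lost without the arrays apart on the poly-A controls (adjusted p = 0.204).

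At ZT0, Rpl12 rose by 0.31 (adjusted p = 0.007), from 5.65, 5.95 and 6.27 to 5.65, 6.26 and 6.56, and Rpl7l1 1426386_at by 0.19 (adjusted p = 0.0469), a call lost without those arrays (adjusted p = 0.156). Both pairs of groups overlapped. At ZT12, Rps3 1455600_at fell by 0.29 (adjusted p = 0.0231), and over all strains and times it was not called (adjusted p = 0.0538). The bright Rps3 probe set 1435151_a_at differed by -0.02 at ZT12 (adjusted p = 0.762) and 1447563_at by 0.04 (adjusted p = 0.841). Of the 58 bright members 52 were below 0 at ZT12, with a median of -0.024 against -0.0076 for the 984, but 0 were called by limma, against 7.52% of the 984, 5 had an unadjusted p under 0.05, and the smallest adjusted p was 0.057.

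In undisturbed mice, 7 of the 104 probe sets from 5 genes varied with time of day (6.73%), against 11.7% of all probe sets, and 0 of the 58 bright members were called by limma, against 7.11% of the 984 (0 at an unadjusted p under 0.05, smallest adjusted p = 0.357). Rpl7l1 1452049_at had control means of 8.03 at ZT0, 7.81 at ZT6, 7.91 at ZT12 and 8.13 at ZT18 (range 0.32, adjusted p = 1.72e-08). Rps20 1450417_a_at ran the other way, with 3.73, 3.99, 4.07 and 3.73 (range 0.34, adjusted p = 3.33e-06). Rps4l had a range of 0.34 (adjusted p = 1.29e-06), Rpl13a 1433928_a_at of 0.14 (adjusted p = 0.0033) and Rpl22 1448398_s_at of 0.12 (adjusted p = 0.00616). These 5 genes were also called with sleep deprivation, a comparison that uses the same control arrays.

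Strain had larger effects than sleep loss on single probe sets, and in controls many bright ribosomal protein probe sets were slightly lower in C57BL/6J than in AKR/J, mainly at ZT6. The 3 pairs of strains share groups, so their values are set side by side. Against AKR/J, C57BL/6J controls had 7 members higher and 36 lower (41.3%), compared with 22.9% of all probe sets called and 13.1% called lower. Without ZT6 the members called were 7 higher and 18 lower, compared with 19% of all probe sets called. DBA/2J against AKR/J gave 6 higher and 15 lower (20.2%), compared with 17.3%. DBA/2J against C57BL/6J gave 16 higher and 11 lower (26.0%), compared with 23.2%.

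The largest strain differences lay on single probe sets of Rps9, Rps3, Rpl14 and Rps4l. Rps9 1434624_x_at ran from 4.22 through 4.47 to 4.76 in AKR/J controls, from 7.96 through 8.24 to 8.48 in C57BL/6J and from 4.24 through 4.42 to 4.53 in DBA/2J, 3.76 higher in C57BL/6J than in AKR/J (13.5-fold). C57BL/6J did not overlap either of the other strains there. The bright Rps9 probe set 1433689_s_at went the other way, 0.20 lower in C57BL/6J than in AKR/J (adjusted p = 5.07e-08) and without overlap between these strains. Both of these probe sets can match several transcripts.

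Rpl14, a large-subunit protein gene with 1 probe set among the members, ran from 7.27 through 7.39 to 7.47 in AKR/J controls, from 5.50 through 5.69 to 5.94 in C57BL/6J and from 7.31 through 7.42 to 7.52 in DBA/2J. C57BL/6J was again apart from both, lower than AKR/J by 1.68. Rps3, a protein of the mRNA entry channel, was the DBA/2J counterpart: 1455600_at ran from 7.16 through 7.39 to 7.59 in AKR/J, from 6.91 through 7.15 to 7.29 in C57BL/6J and from 4.86 through 5.14 to 5.72 in DBA/2J (-2.20 against AKR/J). Its bright probe set 1435151_a_at overlapped in all 3 strains and was called in none of the 3 pairs.

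Rps6 1416142_at ran from 6.78 through 7.23 to 7.38 in AKR/J controls, from 7.03 through 7.42 to 7.56 in C57BL/6J and from 6.07 through 6.26 to 6.40 in DBA/2J, apart from both in DBA/2J (-0.94 and -1.16). Its other, dim probe set was also lower in DBA/2J, by 0.21 and 0.20. Rps4l was highest in C57BL/6J, with 8.32, 8.64 and 8.85, against 6.84, 6.99 and 7.29 in AKR/J and 6.98, 7.55 and 7.94 in DBA/2J, and AKR/J and DBA/2J overlapped.

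Rps2, a protein near the mRNA entry site, is the bright member whose strains were all apart. Its probe set 1431766_x_at ran from 12.39 through 12.47 to 12.51 in AKR/J controls, from 12.00 through 12.03 to 12.10 in C57BL/6J and from 11.63 through 11.78 to 11.84 in DBA/2J. The steps were -0.43 for C57BL/6J against AKR/J, -0.70 for DBA/2J against AKR/J and -0.27 for DBA/2J against C57BL/6J, each called. In all, 6 of 104 members (5.77%) did not overlap between AKR/J and C57BL/6J controls, against 4.03% of all probe sets. Between AKR/J and DBA/2J it was 3 (2.88%, against 3.65%) and between C57BL/6J and DBA/2J 6 (5.77%, against 4.57%), shares near those of the array as a whole. These members came from Rps9, Rpl14, Rps3, Rps6, Rps4l, Rps2 and Rps29. Where only 1 probe set of a gene differs between strains, the difference cannot be assigned to the RNA level of the gene.

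**Figure D4:**
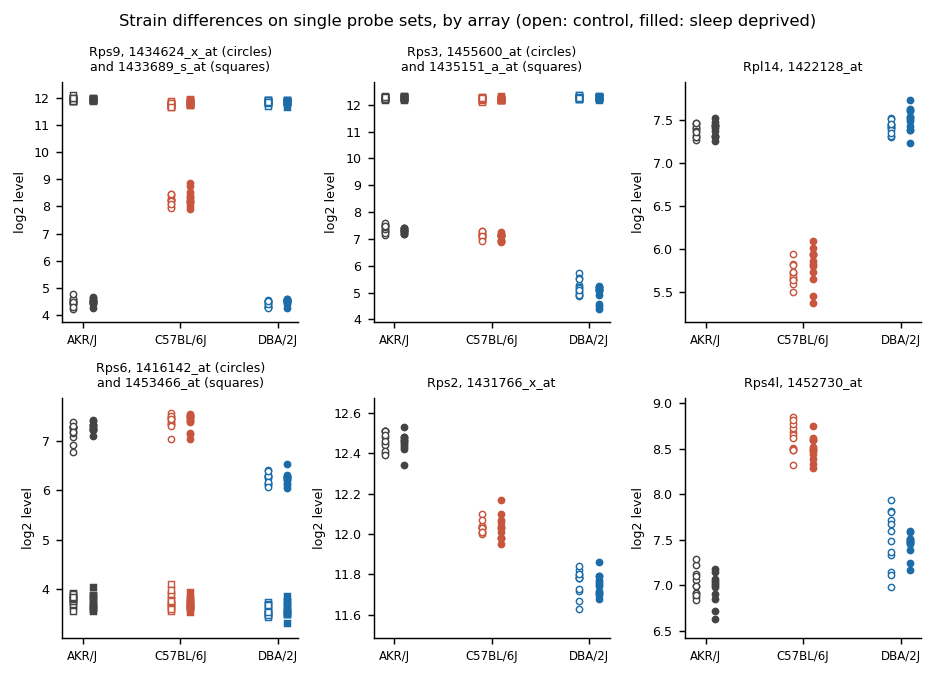
Log2 level (vertical axis) on every array by strain (horizontal axis) for 6 genes with the largest strain differences; open symbols are control arrays, filled symbols sleep-deprived arrays, and squares a further probe set of the same gene where there is one. The circles of Rps9, Rps3, Rpl14 and Rps6 put 1 strain apart, whereas the squares of Rps3 (12.10 to 12.36 in controls) overlap in the 3 strains. The squares of Rps9 (11.68 to 12.12 in controls) differ far less than its circles, with C57BL/6J below AKR/J.

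The sleep-deprived arrays, which are other mice, gave like values for these probe sets. C57BL/6J minus AKR/J was 3.84 for Rps9 1434624_x_at, -1.59 for Rpl14, -0.42 for Rps2 and 1.56 for Rps4l, and DBA/2J minus AKR/J was -2.34 for Rps3 1455600_at, -0.70 for Rps2 and -1.04 for Rps6. The 1.60 of Rps4l in controls was thus close to its value after sleep loss. Rps6 in C57BL/6J against AKR/J was 0.22 in controls, where it was called, and 0.10 after sleep deprivation (adjusted p = 0.219).

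Smaller called differences in controls included Rps25, which was higher than in AKR/J by 0.24 in C57BL/6J and by 0.34 in DBA/2J. Rpl13a 1417608_a_at was higher in C57BL/6J than in AKR/J by 0.14 and lower in DBA/2J than in C57BL/6J by 0.17. Its probe set 1455485_x_at was also higher in C57BL/6J than in AKR/J (0.11), whereas 1433928_a_at was lower (-0.11, adjusted p = 0.00722). The strain difference of Rpl13a therefore has no single direction. Rpl27a 1437729_at was lower in C57BL/6J than in AKR/J (-0.31), as were Rps18 1435712_a_at (-0.21) and Rpl11 (-0.19), whose protein also binds Mdm2. Rps27 was higher in DBA/2J than in AKR/J by 0.11 and than in C57BL/6J by 0.21. Rps28 1454778_x_at (-0.18), Rps20 1450417_a_at (-0.17) and Rpl41 1422623_x_at (-0.15) were lower in DBA/2J than in AKR/J, and Rplp0 was lower in DBA/2J than in either (-0.11 and -0.11).

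The lower values in C57BL/6J than in AKR/J controls concerned the bright probe sets and were largest at ZT6. A difference between these strains does not show which of them departs from the other mice. Of the 58 with a mean over 11, 31 were called against AKR/J (53.4%), compared with 36.3% of all 984 probe sets of that level, and 29 were called lower, compared with 21.5% of the 984. Small-subunit members made up 20 of these calls, all lower, out of 32, and large-subunit members 11 out of 25, of which 2 were higher. The median difference was -0.07 among the 58 and -0.01 among the 984.

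By time, 32 of the 58 were called lower at ZT6 (against 18.1% of the 984), with a median of -0.19. At ZT0 it was 1 (against 4.37%), with a median of -0.04, at ZT12 1 (against 5.08%), with a median of -0.03, and at ZT18 3 (against 5.08%), with a median of -0.04. Without ZT6, 13 of the 58 were called lower (22.4%, against 15.1% of the 984), with a median of -0.04 (-0.02 among the 984). Whether the strain difference depends on the time was not tested. The naming rule gave 12 members for this pair, picked for the largest differences with ZT6 included. They kept their calls without ZT6, Rps2 at -0.42, Rps18 1435712_a_at at -0.16 and Rpl11 at -0.15 among them. Most of the arrays are the same, so this is no separate support.

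Sleep-deprived arrays showed less of it. There 16 of the 58 were called (27.6%, against 37.3% of the 984), and 14 were called lower (24.1%, against 22.5%), a share near the background, with a median of -0.03. Over all members 27 were called (26.0%, against 24.8% of all probe sets), of which 23 were called in controls too. Rps25, higher by 0.24 in C57BL/6J controls, differed by 0.03 there (adjusted p = 0.682), and Rps18 1435712_a_at differed by -0.07. Replicate 3 at ZT0 and replicates 1 and 3 at ZT6 of the sleep-deprived C57BL/6J mice are among the arrays apart on the poly-A controls. No sleep-deprived AKR/J array is among them, and values without these arrays are not given for this comparison.

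Arrays of one strain were not alike in this respect. The median deviation of the 58 bright members from their means was 0.04 ± 0.04 (SD, n = 12) in AKR/J controls, -0.02 ± 0.05 in C57BL/6J controls and -0.0061 ± 0.06 in DBA/2J controls. In AKR/J controls the group means were 0.040 at ZT0, 0.071 at ZT6, 0.016 at ZT12 and 0.030 at ZT18, and in C57BL/6J controls 0.022, -0.091, -0.017 and -0.014. Those of DBA/2J controls were -0.042, 0.040, 0.022 and -0.044, so C57BL/6J was the lowest strain at ZT6 and ZT12 but not at ZT0 or ZT18. At ZT6 after sleep deprivation the order of the group means was the opposite, -0.002 in AKR/J and 0.032 in C57BL/6J. That C57BL/6J mean rests on replicates 1 and 3, at 0.067 and 0.059, both apart on the poly-A controls. Its replicate 2 stood at -0.029.

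Technical measures and cell type markers also differed between arrays. The 6 arrays apart on the poly-A controls had a deviation of 0.037 to 0.12, against -0.126 to 0.104 on the other 65, and a difference between the 3′ and 5′ Gapdh control probe sets of -0.121 to -0.042, against -0.278 to -0.155. Without these 6 arrays 25 of the 58 were called lower in C57BL/6J than in AKR/J controls (43.1%, against 21.7% of the 984), with a median of -0.06. The Gapdh difference was -0.21 ± 0.05 in AKR/J and -0.19 ± 0.05 in C57BL/6J controls, and that of actin 0.73 ± 0.08 and 0.66 ± 0.06.

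Of the cell type markers, 4 of 5 for oligodendrocytes were higher in C57BL/6J than in AKR/J controls (median 0.16), with summed levels of 14.56 to 14.69 in AKR/J and 14.64 to 14.83 in C57BL/6J. Astrocyte markers had 3 higher and 1 lower of 6, with summed levels of 13.40 to 13.50 in AKR/J and 13.51 to 13.69 in C57BL/6J, which do not overlap. Microglia markers had 2 higher and 3 lower of 6 (11.29 to 11.44 and 11.25 to 11.52), choroid plexus markers 2 higher of 5 (13.84 to 13.99 and 13.90 to 14.02), endothelial markers 2 higher and 1 lower of 6, red blood cell markers 1 higher of 3, neuronal markers 1 lower of 6 and pituitary markers none. The part of these measures in the strain difference was not tested.

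**Figure D5:**
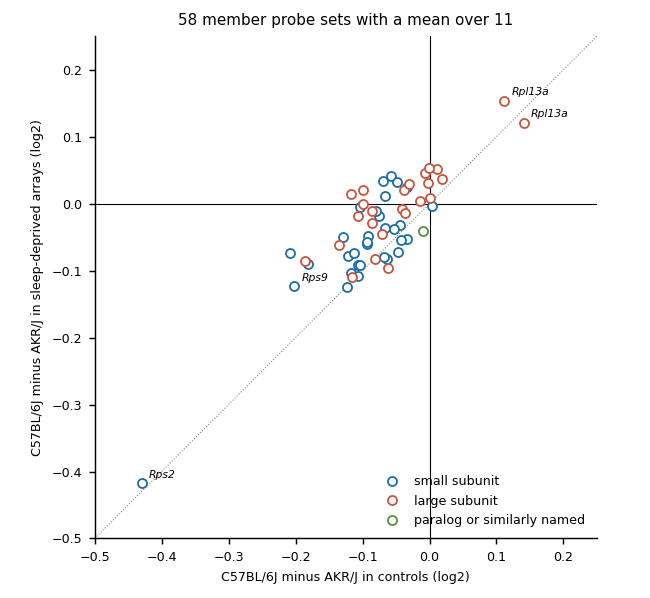
C57BL/6J minus AKR/J difference (log2) of the 58 members with a mean over 11, in control arrays (horizontal axis) and in sleep-deprived arrays (vertical axis), coloured by subunit, with the dotted line where both are equal. In controls 52 of the 58 lie below 0, against 565 of all 984 probe sets of that level. In sleep-deprived arrays 40 lie below 0, against 575 of the 984. Rps2 lies near -0.4 in both, and the 2 bright Rpl13a probe sets lie above 0 in both.

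Genes that work with the ribosomal proteins were followed on their brightest probe sets, for which 22.1% of all genes were called with sleep deprivation. Among other mRNAs with an oligopyrimidine start, 1 of 16 was higher and 3 lower (25.0%). Eif4b, which assists the initiation helicase, fell by 0.13 (adjusted p = 4.55e-11) and Eif3e by 0.08 (adjusted p = 0.00329), and the elongation factor gene Eef1a1 differed by 0.0006. Ribosome biogenesis factors had 9 higher and 5 lower of 50 (28.0%), among them Mdn1, which remodels large-subunit precursors (0.12, adjusted p = 4.65e-05).

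The RNA polymerase I machinery, which makes ribosomal RNA, had 4 higher and 1 lower of 13 (38.5%), with Polr1d at 0.12 (adjusted p = 3.81e-06) and Ubtf at 0.09. Of 23 genes of the TOR pathway and its oligopyrimidine regulators 2 were higher and 2 lower (17.4%): Ddit4, an inhibitor of TOR complex signalling, rose by 0.21 (adjusted p = 3.47e-09) and Rheb, its activator, by 0.07, whereas Rhebl1 fell by 0.09 and Ddit4l by 0.05. Larp1 differed by 0.0054 (adjusted p = 0.901). The proteins of the mitochondrial ribosome had 18 higher and 12 lower of 76 (39.5%), with Mrpl42 at 0.11 (adjusted p = 1.39e-07), Mrps6 at 0.14 and Mrpl57 at -0.15. Of the members above 5 of 49 were called. Among those 5, Rpl7l1, Rps19bp1 and Rps4l are paralogs or similarly named genes, and Rpl12 and Rps25 encode ribosome subunit proteins.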

How the data were processed

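Expression in whole brain was measured on 71 one-colour Affymetrix arrays, grouped by strain, condition and time from the sample labels. As deposited by the authors, the values are on a log2 scale, 1 per probe set, and RMA is the tool that the submitters' processing notes name for them. Its version and settings and a genome build are not given in those sources. RMA normalises arrays to one another, so a change shared by most RNAs would not show. The values ran from 2.69 to 14.35 with array medians of 5.65 to 5.71. No counts or detection calls underlie them, and the number of arrays limits the precision. The labels describe pools of 3 mice within a group, so the replicate error is that of pools. Replicates were compared, and the root mean square difference within groups was 0.145 to 0.239, so none was taken for a repeat.

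After 64 control probe sets were left out, limma 3.58.1, run in R 4.3.3 with the package data.table (version 1.17.8), fitted 1 mean for each of the 24 groups to all 45037 probe sets, leaving 47 residual degrees of freedom, and eBayes moderated the contrasts. Interactions and time of day had F tests and the other tests were two-sided. Benjamini-Hochberg adjustment ran over the whole array and calls were made at 0.05. The fit was tested on simulated data. Gene names came from the platform table, and all 104 members had an Entrez number in RefSeq with the same symbol. Probe sets ending in _x_at (40 members) or _s_at (3 members) can match several transcripts.

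The members, the lists of related genes, the named-gene rule and the tests were chosen with earlier results of these data known, and the split at a mean of 11 was set on the values. The rule named called members with the largest changes (10 each way over all groups, 4 each way per strain or time, 6 each way per strain pair), up to 8 members per interaction (the 3 of smallest p where none was called), 10 for time of day, a fixed set of subunit genes and paralogs, and up to 4 genes per related list. Of that set Rplp1, Rpl10, Rpl3 and Rpl10l were not members, and the part of the rule on highest and lowest levels was not used, since levels of different probe sets are not compared. Alternatives were centring or quantile normalisation, a filter on dim probe sets, array weights, eBayes with trend and robust settings, the replicate number as a block, arrays apart on hybridisation controls left out or as a block, and leaving out each array. The poly-A control arrays, the strain tests in sleep-deprived arrays, and those of C57BL/6J against AKR/J without ZT6 or at single times were added after seeing the data.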

Additional observations from a re-analysis of the deposited data

Results flagged for a closer look

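For 2 members the response to sleep deprivation differed between times of day by a test of the difference itself. Rps4l 1452730_at had effects spanning 0.379 log2 units over the 4 times (limma adjusted p = 0.0109), from 0.13 at ZT0 to -0.25 at ZT12. Rpl7l1 1452049_at had effects spanning 0.209 (limma adjusted p = 0.0273), from 0.08 at ZT18 to 0.29 at ZT6, all above 0. Both were lost when the 8 arrays at one end of the hybridisation controls were left out (adjusted p = 0.134 and 0.0638), where the spans were 0.32 and 0.23.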

How the results depend on the processing

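No result changed direction under any alternative run. Quantile normalisation gave 1 call at ZT0 in place of 2, the filter on dim probe sets 2 calls in C57BL/6J in place of 4, and array weights 4 at ZT0 and 11 at ZT6 in place of 2 and 7. Time by sleep deprivation gave 0 calls in place of 2 without the arrays apart on hybridisation controls, which had no clear gap to the rest (0.104 against an SD of 0.276), and 1 without those apart on poly-A controls. Sleep-deprived arrays gave 27 calls in place of 43 for C57BL/6J against AKR/J, where leaving out ZT6 gave 25, all among the 43, and 11 in place of 21 for DBA/2J against AKR/J. The causes were not tested. Leaving out each array in turn gave 11 to 14 calls over all groups, 2 to 5 in AKR/J, 3 to 5 in C57BL/6J, 2 to 5 in DBA/2J, 1 to 3 at ZT0, 5 to 8 at ZT6, 4 to 8 at ZT12, 1 to 3 for time by sleep deprivation, 5 to 7 for time of day, and 37 to 48, 17 to 25 and 23 to 32 for the strain pairs. ZT18 and strain by sleep deprivation stayed at 0 calls. The Rps10 call was lost in 15 of 71 such refits, that of Rpl12 in DBA/2J in 36 and in AKR/J in 12, and that of Rpl7l1 1426386_at at ZT0 in 32, whereas Rpl7l1 1452049_at, Rpl12, Rpl13a, Rps9, Rps25, Rps19bp1, Rps20 and Rpl22 kept their overall calls in all 71.

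Arrays with the same replicate number did not deviate together (median correlation 0.00554 over 805 pairs from different groups, from -0.409 to 0.603), so the numbers were not taken to pair samples. With the replicate number as a block 13 members were called over all groups, 4 in each strain, 3 at ZT0, 7 at ZT6, 6 at ZT12 and 0 at ZT18, 0 for strain by sleep deprivation, 3 for time by sleep deprivation, 7 for time of day, and 42, 21 and 27 for the strain pairs. Precision is limited by array number and, for dim probe sets, by signal.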
